A study of Mus musculus with 5 samples.

Results

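The sites described here are regions of accessible chromatin that were clearly called in 2 lists of DNase I hypersensitive sites and had no peak at all in the list of the vehicle-treated library. They were chosen by their scores. Overlapping peaks of the 3 distinct lists (1 bp or more in common) were joined into sites. A site was taken when it scored at least 200 in both other lists and overlapped no vehicle peak. This gave 679 of 52181 merged sites, called the vehicle-lacking sites below. The presence and score of peaks in all 3 lists were used for the choice, so these values are given as a description and no test is made on them. Positions are on the mouse build mm9.

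The cells were mouse 3T9 fibroblasts, an immortal line of embryonic fibroblasts, derived from E13.5 embryos of mixed strain. All samples shared floxed c-myc alleles and an in vitro infection with MycER. The 4-OHT samples had 4 h of 400 nM 4-hydroxytamoxifen (4-OHT), and the vehicle samples had ethanol (EtOH) and are labelled 0 h. The series has 5 samples, namely 2 libraries with 4-OHT, 2 libraries with EtOH and 1 input of sonicated DNA, for which no peaks were used here. Whether the libraries came from separate cultures is not stated in the labels.

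MycER joins Myc to the hormone-binding part of the estrogen receptor, so that the protein is held inactive until 4-OHT is added. Myc pairs with Max and binds E-box sequences, mostly in promoters and enhancers that are already accessible. DNase I cuts preferentially where DNA is not wrapped in nucleosomes, and clusters of such cuts mark promoters, enhancers and insulators. A peak list reports where cuts passed a statistical limit. A site missing from a list was not called there, which does not show that it was closed.

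The list of 4-OHT replicate 2 is called the 4-OHT list and that of EtOH replicate 1 the vehicle list. The lists of 4-OHT replicate 1 and EtOH replicate 2 held the same 44956 peaks with the same scores, so they were counted as 1 list under both treatment labels, called the repeated list. If its true label is vehicle, then each site described here was called in 1 of 2 vehicle libraries. The lists held 47621 peaks (4-OHT), 44956 (repeated) and 35149 (vehicle), and peaks scoring at least 200 were 63.6%, 65.9% and 64.1% of them in this order. Read depth is unknown, and with 1 list per undisputed label no replicate check and no p-value can be given. The 95% intervals below are binomial and cover counting error over sites only. Neighbouring sites are not independent.

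Sites that scored at least 200 in both the 4-OHT and repeated lists, called clear sites below, nearly always had a vehicle peak. Of the 26737 clear sites, 2.54% had none, and these are the 679 sites themselves. The mirror cases were rarer. Of 21694 sites with at least 200 in the repeated and vehicle lists, 7 had no peak in the 4-OHT list (0.0323%). Of 21683 sites with at least 200 in the 4-OHT and vehicle lists, 13 had no peak in the repeated list (0.06%). Of 22019 sites with at least 200 in the vehicle list, 5 had no peak in either other list (0.0227%). At this cut, clear absences were therefore counted far more often in the shorter vehicle list than in the other lists, whichever label the repeated list has. The cut of 200 is not alike between lists. Vehicle scores ran lower, with a median log2 ratio of vehicle to 4-OHT score of −0.81 over 20977 shared sites. These had at least 200 in the 4-OHT list, under 3100 in every list and no floor of 200 in the vehicle list. That choice itself lowers the ratio, so it is not a general offset between the lists. Peaks of 200 or more also numbered 22535 in the vehicle list, against 30296 in the 4-OHT list. The mirror cases thus start from stronger sites, and these shares are not matched for strength.

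The share without a vehicle peak fell steadily with score. From 200 to 220 in the 4-OHT list it was 114 of 614 clear sites, or 18.6% (15.6% to 21.9%). From 300 to 350 it was 7.32% (6.06% to 8.74%), and from 500 to 700 it was 26 of 2910, or 0.893% (0.584% to 1.31%). At 700 and over, 2 of 15714 sites lacked a vehicle peak. Shared sites, which had a peak in all 3 lists, showed the same gradient in their vehicle scores. Their median vehicle score was 146 where the 4-OHT score was 200 to 220, and 320 where it was 500 to 700. In every bin below 700 the lowest vehicle score of a shared site was between 80.01 and 80.85, next to the lowest score of any list.

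**Figure D1:**
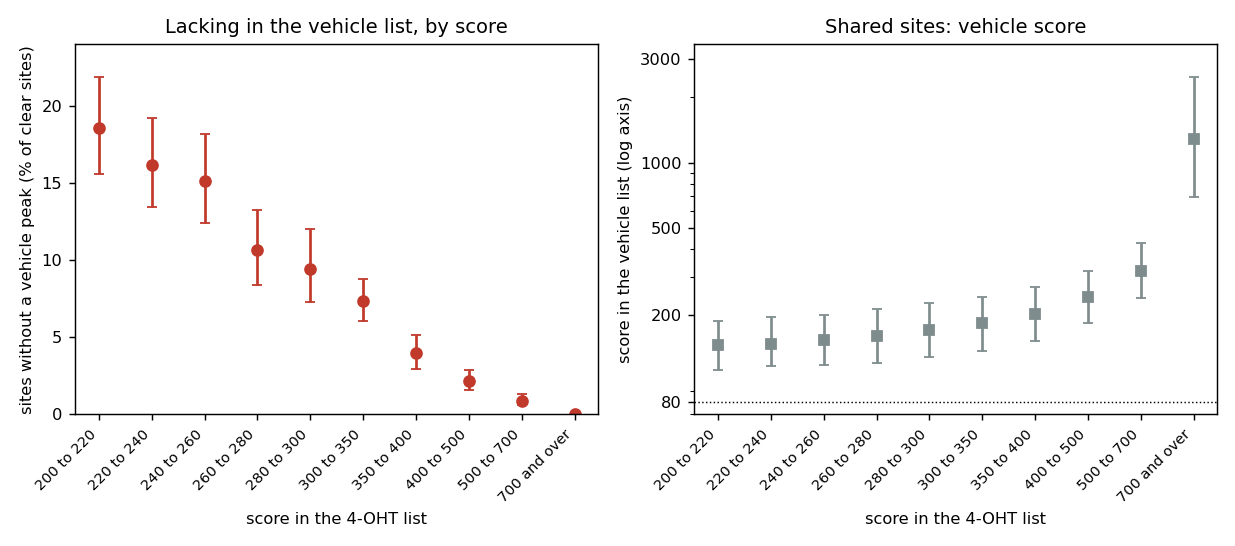
Left, the percentage of clear sites (score of 200 or more in the 4-OHT and repeated lists) without a vehicle peak in each bin of the 4-OHT score, with exact 95% binomial intervals. Right, the median vehicle score of the shared sites in the same bins on a log axis, with bars from the first to the third quartile and a dotted line at 80, the lowest score called. The share drops from 18.6% to 0.893% between the bins at 200 and at 500, while the median vehicle score of shared sites climbs from 146 to 320.

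The shared sites used for comparison were the 26058 with at least 200 in the 4-OHT and repeated lists, weighted in 10 bins so that their 4-OHT scores were spread as those of the vehicle-lacking sites. The median 4-OHT score was then 267 in both classes. The weighted median vehicle score of these shared sites was 168, with 9.62% of them under 100 and 64.5% under 200. The vehicle score was lower than both other scores at 88.0% of them. Shared sites of like score were thus mostly weak in the vehicle list too.

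Most vehicle-lacking sites lay close above the limit that chose them. Their scores ran from 200.55 to 2057 in the 4-OHT list, with a median of 267, and from 200.13 to 862 in the repeated list, with a median of 269. Taking the lower of the 2 scores at each site, 204 sites (30.0%) were from 200 to 220, 371 (54.6%) from 220 to 300, 89 (13.1%) from 300 to 400, 13 (1.91%) from 400 to 500 and 2 (0.295%) at 500 or more. The sites just inside the limit were at chr17:27224052-27225111 (lower score 200.13), chr8:130636559-130637774 (200.51) and chr15:80863132-80864189 (200.51). Just outside were chr3:87599252-87600275 (199.91), chr5:119113668-119114585 (199.86) and chr7:72035873-72036735 (199.85). Just below the limit, 341 sites without a vehicle peak had a lower score of 180 to 200, against the 204 inside from 200 to 220. Of the sites inside, 30.9% lay within 10 kb of a strong shared site, and of those outside 27.9%. The limit therefore divides a continuous run of sites.

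Both scores of a vehicle-lacking site were used to choose it, so how they compare is given as a description only. The 4-OHT score was the higher at 344 of 679 sites (50.7%), against 30.0% of the shared sites of like 4-OHT score. The median ratio of the 4-OHT score to the repeated score was 1.01 at vehicle-lacking sites and 0.847 at shared sites. Both scores were within 1.5 times of each other at 549 sites (80.9%), against 74.4% of shared sites. The repeated score was at least 1.5 times the 4-OHT score at 9.72%, against 22.8%. Either score was at least 2 times the other at 30 sites (4.42%), against 6.73%. Matching was on the 4-OHT score alone, and the weighted median repeated score was 321 at the shared sites, above the 269 of the vehicle-lacking sites.

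**Figure D2:**
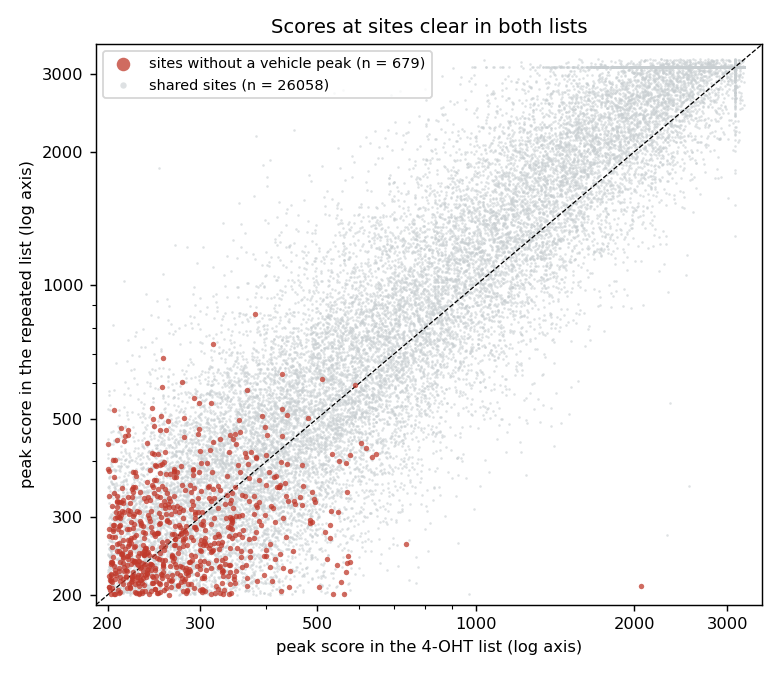
Peak score in the repeated list against peak score in the 4-OHT list, both on log axes, for the 679 sites without a vehicle peak (red) and the 26058 shared sites (grey), with the line of equal scores dashed. The red points crowd next to 200 on both axes and lie evenly about the line, and 1 of them stands far to the right at 2057 and 209.

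Vehicle-lacking sites lay about as far from strong accessible sites as shared sites of like score did, or slightly nearer. Strong shared sites were the 13981 with at least 500 in all 3 lists, and gaps were measured edge to edge. The median gap to the nearest strong shared site was 20.5 kb (17.8 to 23.4 kb), against 24.2 kb for shared sites of like score, which lies outside that interval. The middle 50% of gaps ran from 7.98 to 51.1 kb. A strong shared site lay within 10 kb of 210 vehicle-lacking sites, or 30.9% (27.5% to 34.6%), against 28.04% of shared sites (26.8% to 29.3%). The difference was 2.89 percentage points, with an interval from −0.698 to 6.66 that includes 0. This depends on the weighting. Matched on the repeated score in place of the 4-OHT score, the difference was 4.91 points (1.32 to 8.69), and on the lower of both scores 4.17 points (0.561 to 7.96). Within 1 kb the shares were 4.86% and 4.58%, and within 5 kb 17.2% and 16.4%. Within 50 kb they were 74.7% and 70.02%, a difference of 4.65 points (1.03 to 8.02). No strong shared site lay within 100 kb of 88 vehicle-lacking sites (13.0%) and of 13.8% of the shared sites.

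**Figure D3:**
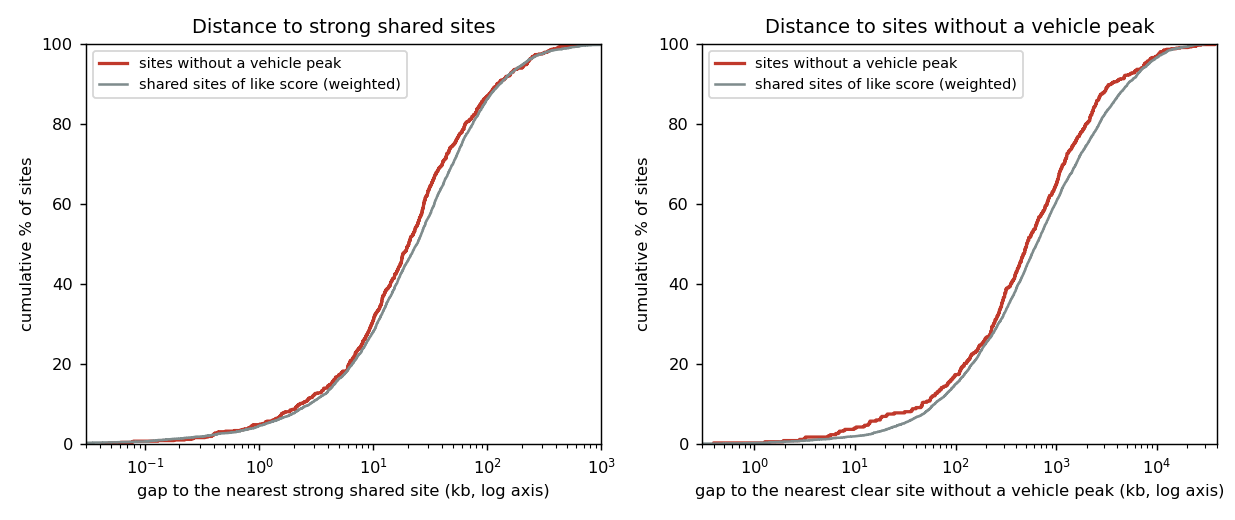
Cumulative percentage of sites by the gap in kb (log axis) to the nearest strong shared site (left) and to the nearest clear site without a vehicle peak (right), for the 679 vehicle-lacking sites (red) and for shared sites weighted to the same 4-OHT scores (grey). The left curves run close together, with medians of 20.5 and 24.2 kb, and on the right the red curve lies above the grey one between 5 and 50 kb, with 3.98% against 1.95% at 10 kb.

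The surroundings were somewhat denser in called sites. A vehicle-lacking site had another site of any kind within 5 kb in 56.6% of cases (52.7% to 60.3%), against 50.7% of shared sites, a difference of 5.89 points (1.90 to 9.82). The median number of other sites within 50 kb was 6 against 5, and within 500 kb it was 48 (45 to 50) against 41. Strong shared sites within 500 kb numbered 12 against 10 in the median. The ranges were wide, from 0 to 168 other sites within 500 kb of a vehicle-lacking site.

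Some vehicle-lacking sites lay right beside a vehicle peak. The nearest site with a vehicle peak lay within 1 kb of 86 of them (12.7%), against 11.7% of shared sites that had another such site this near. The smallest gap was 15 bp, at chr5:125517509-125519442. At the neighbours within 1 kb the median vehicle score was 292, with 29 of the 86 under 200 and 33 at 500 or more. The 5 sites closest to a strong shared site were at chr3:90409657-90410864 (gap 42 bp), chr19:45614231-45618483 (48 bp), chr8:123642708-123645533 (61 bp), chr15:84684176-84685276 (77 bp) and chr4:151234319-151235531 (79 bp). At the chromosome 3 site, the scores were 347 in the 4-OHT list and 217 in the repeated list, beside a strong site with 3100, 3100 and 3193 in the 4-OHT, repeated and vehicle lists.

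At the other end were sites with no strong shared site nearby. The farthest was at chrX:66612917-66614787, with a gap of 679912 bp, no other site within 50 kb, and scores of 218 in the 4-OHT list and 471 in the repeated list. The others were at chr11:56122045-56123188 (670392 bp), chr18:82112596-82113530 (573229 bp), chr12:42235106-42236324 (483449 bp) and chr16:97493613-97494339 (442969 bp). Their lower scores were between 204 and 225, all near the limit.

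Position relative to strong sites went with width. The median width of the merged site was 1268 bp (1208 to 1373 bp) at the 210 sites within 10 kb of a strong shared site, 1191 bp (1161 to 1245 bp) at the 381 sites from there to 100 kb and 1107.5 bp (1046 to 1169 bp) at the 88 sites beyond. Shared sites of like score in the same zones had medians of 1304, 1228 and 1139 bp, so the same order held there. Their merged widths also take in the vehicle peak, so the sizes are not compared between the classes. Lower scores of 300 or more were found at 16.2%, 15.5% and 12.5% of the vehicle-lacking sites in these zones.

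The peaks of the 2 lists that held a vehicle-lacking site coincided about as closely as at shared sites. The overlap of the 4-OHT peak with the repeated peak, divided by their union, had a median of 0.861 (0.850 to 0.868), against 0.863 at shared sites. Their centres were 61 bp apart in the median, against 57 bp. The median width of the merged site was 1205 bp (1173 to 1233 bp), against 1232 bp, but at shared sites this width also takes in the vehicle peak. The 4-OHT peak alone had a median width of 1098 bp against 1088 bp. The repeated-list peak had 1103 bp (1078 to 1134 bp) against 1149 bp, without matching on the repeated score. Several peaks in the 4-OHT or repeated list were held by 22 sites (3.24%), against 3.46%. In width and in the position of the peaks, vehicle-lacking sites therefore differed little from shared sites of like score. The widest were at chr19:47360116-47364857 (4742 bp), chr19:45614231-45618483 (4253 bp) and chr19:10129043-10133155 (4113 bp), and at chr15:77786689-77790920 (4232 bp) and chr15:63862448-63866353 (3906 bp). In 4 of these 5, at least 1 list divided the site into 2 peaks.

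Vehicle-lacking sites were mostly scattered singly. With a chain linking neighbours at gaps of up to 100 kb, 561 of the 679 stood alone, and 118 fell into 53 groups of 2 or more. Another vehicle-lacking site lay within 100 kb of 17.4% (14.6% to 20.4%) of them, and one lay within that distance of 15.0% of shared sites (14.0% to 16.0%). The difference was 2.41 points, with an interval from −0.437 to 5.59. Matched on the repeated score it was 3.46 points (0.616 to 6.64). Within 10 kb the shares were 27 of 679, or 3.98% (2.64% to 5.73%), against 1.95% (1.60% to 2.36%), a difference of 2.03 points (0.732 to 3.81). Within 50 kb they were 10.5% against 7.90%, a difference of 2.55 points (0.331 to 5.18), and within 500 kb 49.0% against 44.1%, a difference of 4.95 points (0.971 to 8.95). The median gap to the nearest vehicle-lacking site was 508 kb, against 639 kb from shared sites. The denser surroundings described above move with these shares, and their part in them was not tested.

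The 27 sites with another within 10 kb lay on 7 chromosomes, 9 of them on chromosome 5. That chromosome held 56 of all vehicle-lacking sites (8.25%) and 6.67% of shared sites of like score. Each site of a close pair is counted, so these are not separate cases. The closest pair, named here after its gap had been seen, lay at chr5:118516430-118518388 and chr5:118518783-118520918, with a gap of 394 bp. The first scored 259.8 in the 4-OHT list and 339 in the repeated list, and the second 528 and 288. On chromosome 4, the sites at 130431642 to 130432821 and 130434095 to 130435288 were 1273 bp apart, with 357 and 378 at the first and 375 and 420 at the second in the same list order. Neither list joined the sites of these pairs.

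Groups of 3 or more linked vehicle-lacking sites numbered 9, with 30 sites in all. They were 1 of 5 sites, 1 of 4 and 7 of 3, of which the first 3 in genome order are described. The largest spanned 209 kb of chromosome 1, from 137571692 to 137780567, with 5 vehicle-lacking sites among 30 merged sites. Their scores lay between 209 and 495. This stretch also held 18 shared sites, of which 8 were strong. Over the 18, the median score was 536 in the 4-OHT list, against 237 in the vehicle list. The vehicle score was lower than both other scores at 17 of these 18 shared sites. It was so at 88.0% of the shared sites of like score over all chromosomes too. Those were weighted to a median 4-OHT score of 267, below the 536 of the 18 sites. Some of the 18 also scored under the limit that those sites had to reach. The shares are therefore not matched for score, and whether the count is particular to the stretch was not tested. With its 18 shared sites the stretch was called accessible in all lists, and its vehicle-lacking sites stood between well-called shared ones.

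The second group was compact, with 4 vehicle-lacking sites in 34.8 kb of chromosome 5 from 125484641 to 125519442. Its sites scored 251, 255, 221 and 279.7 in the 4-OHT list and 291, 235, 322 and 502 in the repeated list, in genome order. Among the 10 merged sites there, 5 more lacked a vehicle peak but were under 200 in a list or absent from it. The only site with a vehicle peak was a strong one at 125501031 to 125503472, with 1513, 1129 and 657 in the 4-OHT, repeated and vehicle lists. Within the group, 9 of 10 sites were thus without a vehicle peak, 4 of them by the choice, and the group starts and ends at such sites. Sites without a vehicle peak were common neighbours elsewhere. An adjacent site on either side lacked one at 60.8% of all vehicle-lacking sites and at 57.1% of shared sites of like score. That is another measure than the 9 of 10 sites. Of all 52181 merged sites, at most 35149 can hold a vehicle peak, the number of peaks in the vehicle list. The last site of the group lay 15 bp from a further site, outside the group, that had 681, 646 and 218 in the 3 lists.

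The next group, on chromosome 2 from 179911121 to 179961053, also had a single site with a vehicle peak, but that site was not strong. It held 3 vehicle-lacking sites, 5 weaker ones without a vehicle peak and 1 shared site with 474, 472 and 252 in the 4-OHT, repeated and vehicle lists. Its first site, at 179911121 to 179914484, had the highest repeated-list score of any vehicle-lacking site (862, with 380 in the 4-OHT list) and lay 1703 bp from a strong shared site. The groups on chromosome 3 from 58943159 to 59083723 and on chromosome 5 from 137182238 to 137236864 each had 3 vehicle-lacking sites, with 1 shared site between them. At the shared site of that chromosome 5 group the vehicle score was 204, between 179.5 in the 4-OHT list and 230.2 in the repeated list.

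**Figure D4:**
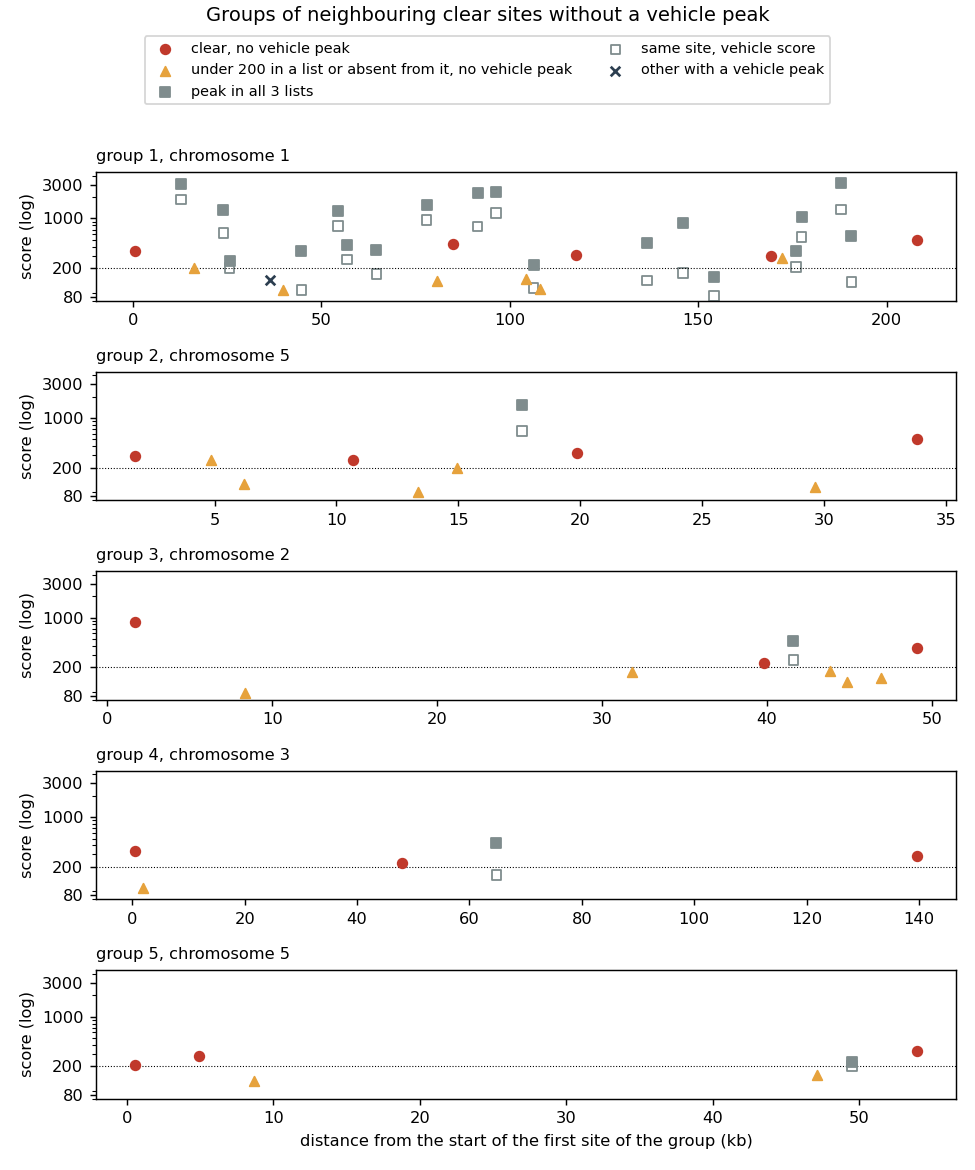
Sites of 5 groups of neighbouring vehicle-lacking sites, namely those of 5 and of 4 sites and the first 3 in genome order of the 7 groups of 3, by distance in kb from the start of the first site; filled marks show the higher of the 4-OHT and repeated scores (log axis), open squares the vehicle score of shared sites, and the dotted line the limit of 200. In group 2 a single shared site, at 1513 in the 4-OHT list against 657 in the vehicle list, stands among 9 sites without a vehicle peak, while group 1 holds 18 shared sites.

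Shared sites near the vehicle-lacking ones had slightly lower vehicle scores relative to their 4-OHT scores. This was measured as the median log2 ratio of the vehicle score to the 4-OHT score over at least 3 other shared sites within a given distance. Only shared sites with at least 200 in the 4-OHT list were used, and those with 3100 or more in any list were left out. Within 50 kb it was −0.91 (−0.94 to −0.86) around the 312 vehicle-lacking sites with enough neighbours, against −0.81 around shared sites of like score and −0.81 over all 20977 shared sites used. Within 100 kb the medians were −0.87 and −0.81, and within 500 kb −0.85 and −0.82. Against the repeated list, the log2 ratio within 50 kb was −1.04 (−1.07 to −1.01) and −0.97. The middle 50% of values around vehicle-lacking sites, from −1.13 to −0.68 against the 4-OHT list, includes the median around shared sites. These ratios use the vehicle list, which also chose the sites, so they describe the surroundings and test nothing.

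The vehicle-lacking sites were spread over all 19 autosomes and X, roughly as clear sites were. Over sites with a 4-OHT score from 200 to under 400, 10.1% of 5992 clear sites lacked a vehicle peak. By chromosome the share ran between 6.85% on chromosome 18 (10 of 146 sites, 3.33% to 12.2%) and 14.4% on chromosome 12 (30 of 209 sites, 9.90% to 19.9%). The intervals of all 20 chromosomes included the overall share. Chromosome 6 had 13.0% (9.68% to 17.1%) and chromosome 4 had 12.7% (9.69% to 16.2%). Chromosome 15 had 7.64% (4.91% to 11.2%), with 24 of all vehicle-lacking sites (3.53%) and 5.36% of shared sites of like score. At these counts no chromosome was separated from the rest.

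**Figure D5:**
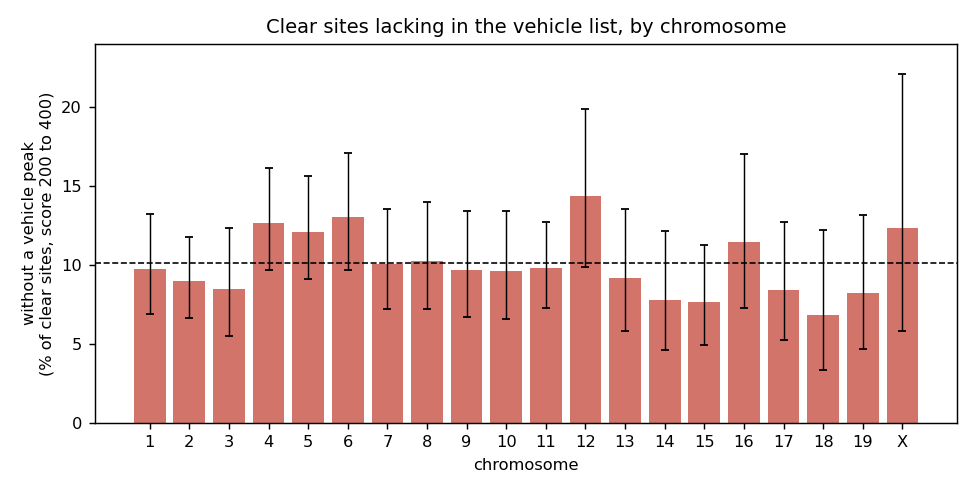
Percentage of clear sites (4-OHT score from 200 to under 400, at least 200 in the repeated list) without a vehicle peak on each chromosome, with exact 95% binomial intervals and a dashed line at the overall 10.1%. Every interval crosses the line, from 6.85% on chromosome 18 to 14.4% on chromosome 12.

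On a scale of 1 Mb the sites fell into 497 windows, 368 of which held 1 site. The most in a window was 5, in 2 windows. They were 137 to 138 Mb of chromosome 1, with 49 clear sites, and 125 to 126 Mb of chromosome 5, with 50 clear sites. A further 14 windows held 4. The window at 80 to 81 Mb of chromosome 10 had 87 clear sites for its 4 vehicle-lacking ones, and that at 77 to 78 Mb of chromosome 12 had 17. The windows with 4 or 5 vehicle-lacking sites thus held between 17 and 87 clear sites. How this compares with other windows was not tested.

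The 12 sites with the highest lower score are those where the missing vehicle peak contrasts most with the other lists. The first, at chr18:67623849-67625537, had 589 in the 4-OHT list and 594 in the repeated list. Its nearest site with a vehicle peak, 3327 bp away, had 574, 715 and 429 in the 4-OHT, repeated and vehicle lists. That neighbour had about the same 4-OHT score. It was picked as the nearest site with a vehicle peak, so its vehicle call follows from the choice. The site at chr7:89168081-89169105 was similar, with 481 and 502, beside a site 4372 bp away with 489, 947 and 500.2 in the 3 lists. So was that at chr8:129405141-129406336 (428 and 524), whose neighbour at 1373 bp had 500.01, 816 and 356.

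Other sites among the 12 had weak neighbours. The site at chr12:85749057-85750530 (510 and 613 in the 4-OHT and repeated lists) outscored its nearest vehicle-peak neighbour, which had 133, 306 and 180.4 in the 4-OHT, repeated and vehicle lists. The same held at chr15:85909611-85910985, where 428 and 631 stood beside a neighbour with 175, 214 and 95.1. At chr5:150310547-150311719, 646 and 415 stood beside a neighbour with 154, 120.1 and 92.2. At chr3:144265189-144266591, 577 and 413 stood beside a neighbour 437 bp away with 178, 91.2 and 120.5. At chr11:98842665-98844493, 604 and 441 stood beside a neighbour with 445, 315 and 211. At these 5 sites the nearest site with a vehicle peak was weaker in both other lists than the vehicle-lacking site. The neighbour was picked for its vehicle peak and the site for having none, so the contrast in calls follows from the choice.

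The remaining sites of the 12 lay at chr2:26253520-26255691, chr5:110530800-110532906, chr17:71146202-71147504 and chr17:23801414-23805129. The site on chromosome 5 had 428 in the 4-OHT list and 456 in the repeated list. It lay 2911 bp from a site at 3100 in all 3 lists, and the chromosome 17 site at 23801414 lay 4952 bp from another at 3100 in all 3. Of the 12, the gap to a strong shared site was between 2911 and 232943 bp, so they include sites near and far from strong ones.

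The highest single score belonged to a site that the lists valued very differently, named here after its values had been seen. At chr11:6609616-6611673, the 4-OHT list had 2057 and the repeated list 209. Its peak was 2058 bp wide in the 4-OHT list, and the overlap of both peaks over their union was 0.567. The next by 4-OHT score, at chr7:109664554-109665947, had 736 in the 4-OHT list and 259.96 in the repeated list. These are the 2 sites at 700 or over in the 4-OHT list, and in both the repeated list scored under 300.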

How the data were processed

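Peak lists of DNase-seq libraries were used as deposited, with a position, a name and a score for each peak. The submitters' processing notes name BWA 0.6.2, SAMtools and MACS 1.4.1, with mm9 as the build and no settings. The deposited score is the caller's own value, read here as minus 10 times log10 of the MACS p-value from the peak names and values. Higher depth raises such scores and passes weaker sites, so sites were compared at like score. The vehicle list has 1 peak number without a row, between 81937775 and 81979519 of chromosome 6, where the 1 site without a vehicle peak scored at most 136.3 and so could not be among those described.

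The merge matched bedtools 2.31.1 (52181 sites by both), and the script was tested on simulated data. Shares carry exact binomial 95% intervals, weighted shares Wilson intervals (effective number 5135), differences Newcombe intervals and medians order-statistic intervals. Starts count from 1. Python 3.11.15, numpy 2.4.6, scipy 1.17.1 and matplotlib 3.10.9 were used. The sites, the comparison class and the measures were chosen with earlier results of these data known. Sites were named by rule: the 12 highest lower scores, the 5 smallest and 5 largest gaps to a strong shared site, the 5 widest, up to 5 groups of 3 or more (most sites first, ties in genome order), and 3 on each side of the limit. Alternatives changed the score limit, merging, strength, distances, weighting and lists. Gene positions and sequence on mm9 were not used here.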

Additional observations from a re-analysis of the deposited data

How the results depend on the processing

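The number of vehicle-lacking sites rests on the score limit and on the need for both lists. It was 1866 with a limit of 150 and 104 with a limit of 300, and ranged from 1637 to 1891 when 1 of the 4-OHT-labelled lists was left out. It lay between 593 and 670 when peaks within 500 bp were merged, when no other vehicle peak was allowed within 1000 bp, and on autosomes only. Equal list length removes no peak of 200 or more and no vehicle peak, so the 679 sites found there say nothing about stability. The list of EtOH replicate 1 could not be left out, since the sites are defined by it.

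The share within 10 kb of a strong shared site was 27.2% with no vehicle peak within 1000 bp, and 21.5% when strong sites needed 1000 in all lists. The first setting also removes the 33 sites with a strong shared site within 1 kb, which lowers the share by construction. The second leaves fewer strong sites, so the share cannot rise. With distances of 5 and 50 kb the share was 17.2% and 74.7%, by construction. Its difference from shared sites was positive under every alternative run. The interval includes 0 in the report's setting and lay above 0 in 7 of 15 alternatives. These were the limit of 150 (2.56, 0.214 to 4.97), 50 kb, each list left out (2.43 to 7.62, with lower bounds of 0.0949 and 5.05), no floor in the repeated list (4.09, 0.580 to 7.81), and weighting by the repeated score (4.91, 1.32 to 8.69) or the lower score (4.17, 0.561 to 7.96).

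The share with another vehicle-lacking site within 100 kb follows their number. It was 38.1% with a limit of 150, 1.92% with 300, 14.3% with no vehicle peak within 1000 bp, and 35.4% to 35.7% with a list left out. Within 50 and 500 kb it was 10.5% and 49.0%. Its difference from shared sites was −1.25 points (−2.76 to 3.59) with a limit of 300, where 104 sites remain. The interval, which includes 0 in the report's setting, lay above 0 in 8 of 14 alternatives. These were the limit of 150 (6.79, 4.27 to 9.33), 50 and 500 kb, each list left out (4.16 to 6.64, with lower bounds of 1.70 and 4.05), no floor in the repeated list (3.03, 0.237 to 6.16), and weighting by the repeated score (3.46, 0.616 to 6.64) or the lower score (2.93, 0.0699 to 6.12). The median width was 1114.5 bp with a limit of 150, 1415.5 bp with 300, and 1046 to 1118 bp with a list left out. Weighting by the lower score of both lists was not planned and was chosen after seeing the data. The causes of these changes were not tested. No paired analysis was possible because the result comes from no test and the repeated list sits in both replicate pairs. Depth is unknown, so absence from the vehicle list is absence of a call.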
